A study of Capra hircus with 30 samples.

Results

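The collagen and laminin chains of the follicle matrix were examined in goat granulosa cells, the somatic cells that line the follicle and surround the oocyte. Members were the features whose NCBI gene number carries a gene symbol of the form COL, number, A, number (collagens) or LAMA, LAMB or LAMC and a number (laminins) in the RefSeq table of the goat assembly ARS1.2. This gave 46 of the 20125 features, 37 collagens and 9 laminins. The RefSeq table holds 55 such genes, and the other 9 (COL4A3, COL7A1, COL9A2, COL15A1, COL18A1, COL19A1, COL25A1, LAMA5 and LAMB3) were not analysed here.

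Total RNA of ovarian granulosa cells of Ji'ning grey goats gave 30 libraries, 5 in each of 6 groups that crossed fertility class with follicle size. HLG, HMG and HSG were large (over 7 mm), medium (3 to 7 mm) and small (under 3 mm) follicles of the high fertility class, and LLG, LMG and LSG the same sizes of the low fertility class. The classes were set by litters of 3 or more kids and of 2 or fewer in the methods, and of more than 3 and fewer than 2 in the series' own text. The series' own text speaks of single-cell sequencing, whereas each of the 30 columns is 1 library of granulosa cells. Within a class the follicles of several goats were pooled, and the granulosa cells of a size were then split into samples, so which animal a library came from is not stated and p-values measure the spread between libraries, which may be technical.

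A follicle is enclosed by a basement membrane, a thin sheet that separates the granulosa cells from the theca. Its frame is a network of type IV collagen, built from triple helices of 3 chains, joined to a network of laminins, each of which combines an α, a β and a γ chain. Granulosa cells are known to make much of this sheet, whereas fibrillar collagens such as types I and III are textbook products of the theca and stroma outside it. The members were therefore read as 14 basement membrane chains (5 of type IV collagen and 9 laminins), 11 fibrillar chains (types I, II, III, V, XI, XXIV and XXVII), 8 fibril-associated chains, 10 chains of types VI, VIII, X, XXVI and XXVIII, and 3 transmembrane chains.

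The chains were listed at 0 in most libraries, and when they were above 0 their values were low. A member was above 0 FPKM in a median of 7 of 30 libraries (range 1 to 16), against 5 over all features. Of the members' 1380 values 24.86% were above 0, against 23.78% over all features. Genes with a longer span in the genome were above 0 more often. The medians of members and all features were 6 and 9 libraries for 50 to 100 kb and 7 and 10 for 100 to 200 kb. Above 200 kb they were 8 and 11, and for 20 to 50 kb 5.5 and 6. In the classes of 0 to 10 and 10 to 20 kb, with 1 member each, the member was higher (11 against 3 and 8 against 5). FPKM is a fragment number scaled by transcript length and by sequencing depth. The median of the values above 0 was 0.16 FPKM for the members and 0.55 for all features. The highest single value of any chain was 9.47 FPKM. No chain was therefore a consistent transcript of these libraries: COL24A1 and COL6A5, the members found most often, were above 0 in 16 libraries each.

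**Figure D1:**
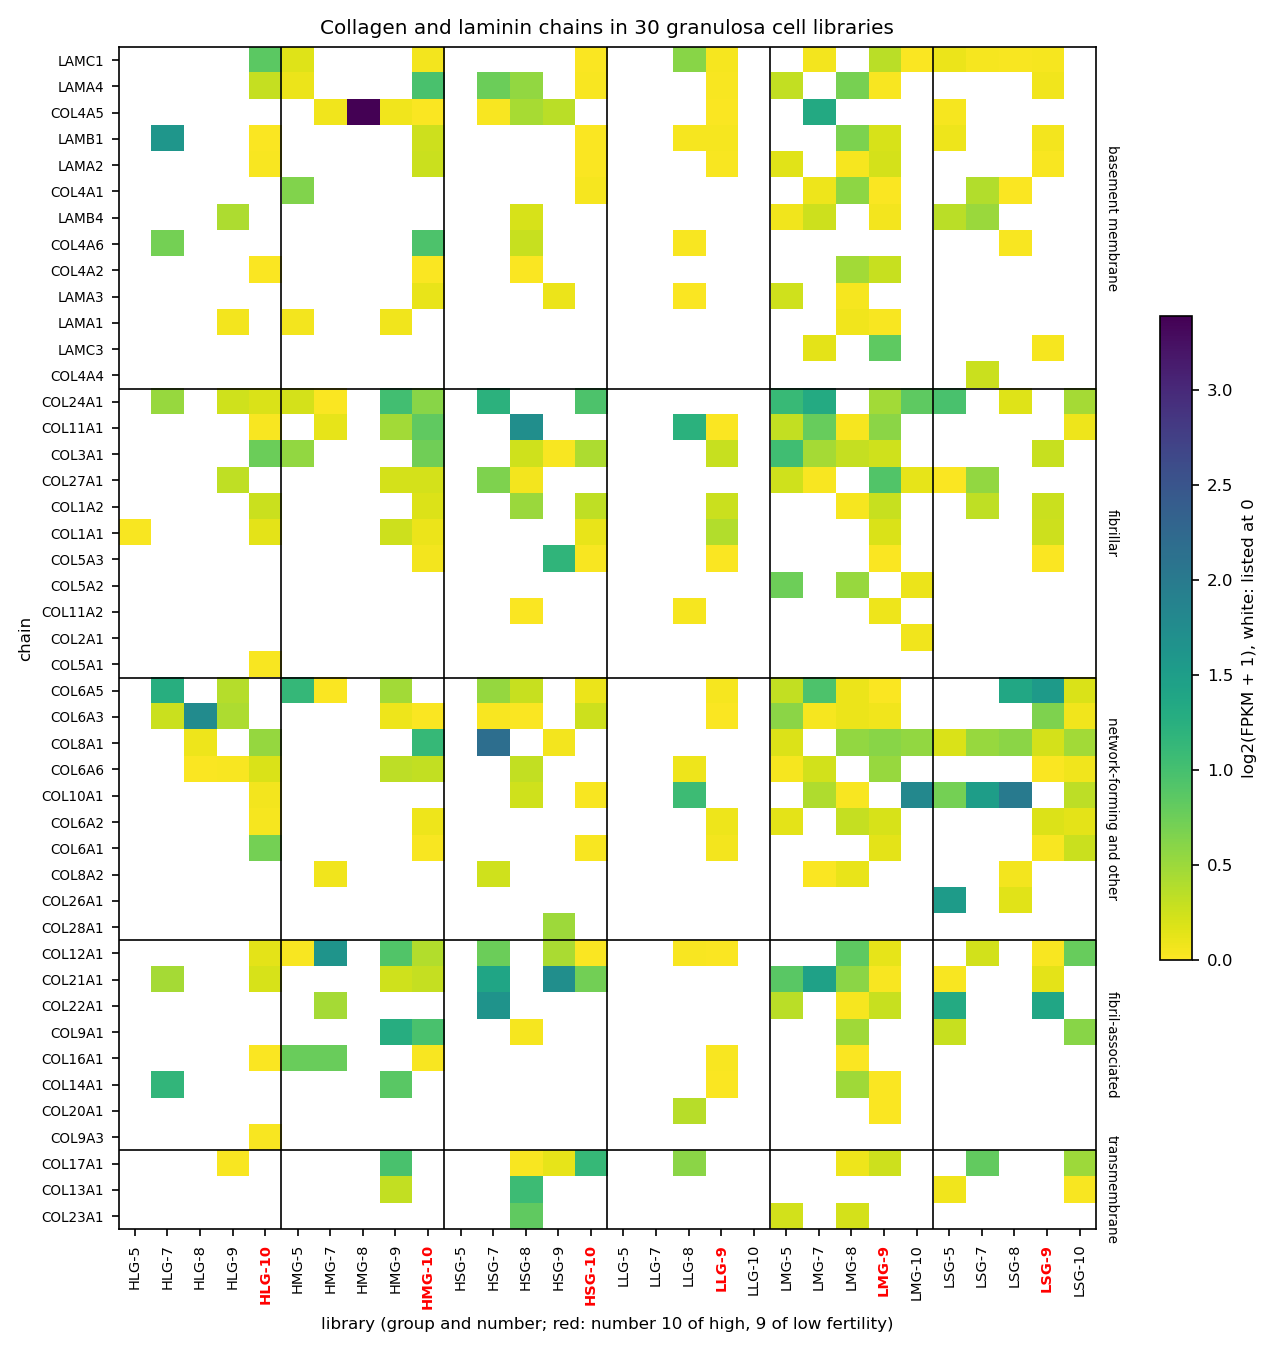
Level of 45 of the 46 chains (rows, by class) in the 30 libraries (columns, by group) as log2(FPKM + 1), with values listed at 0 in white and the names of the 6 libraries that share a set of chains in red. Most fields are white, no chain is filled in more than 16 libraries, and 4 libraries hold no chain above 0.

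A value of 0 does not show that a chain was silent, since most features were listed at 0 in some libraries. Between 301 and 9256 features were above 0 in a library. The number of chains above 0 ranged from 0 to 29 over the libraries (median 10.5), and HSG-5, LLG-5, LLG-7 and LLG-10 had none. It went with the number of features above 0 (Pearson's r = 0.83, Spearman's rho = 0.77, n = 30 libraries in 6 groups, whose depth and input bear on both numbers, given as a description). Read totals were not used here, so no counting interval is given. The labelled cell type was poorly marked: of 12 granulosa cell genes in the table, GJA1 was above 0 in 18 libraries and INHBA in 14, but FSHR and AMH were each above 0 in 1 and were listed at 0 in the other libraries. According to the methods, each sample held only a small number of granulosa cells. In such samples of several cells, fewer cells of a type and less RNA per cell cannot be told apart.

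A set of 6 libraries stood apart in the chains they held. They were HLG-10, HMG-10 and HSG-10, numbered 10 in each high fertility group, and LLG-9, LMG-9 and LSG-9, numbered 9 in each low fertility group. COL1A1, COL1A2 and COL3A1 were all above 0 in 6 of these 6 libraries and in 0 of the other 24. The same held for LAMA2, LAMB1 and LAMC1, and for LAMA4, LAMB1 and LAMC1. The set was recognised from the joint presence of these chains after their values had been seen, so the counts are a description and were not tested.

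The 6 libraries also held transcripts of skeletal muscle. Of 28 skeletal muscle genes in the table, a list chosen after the values had been seen, between 20 and 26 were above 0 in each of the 6 libraries and between 0 and 11 in each of the other 24. TNNT3 (fast troponin T) and MYOZ1 (a Z-disc protein) were above 0 in all 6 and in 0 of the other 24. The list's summed level ranged from 10.66 to 20.7 FPKM in the 6 libraries and from 0 to 24.21 FPKM in the others. Of 10 theca and stroma genes, 2 to 8 were above 0 in the 6 libraries and 0 to 4 in the others. Of 8 endothelial genes, the range was 1 to 4 in the 6 libraries and 0 to 4 in the others, and of 12 granulosa cell genes it was 1 to 6 and 0 to 5. The summed level of the theca and stroma genes was 0.32 to 2.19 FPKM in the 6 libraries and 0 to 18.73 in the others. For the granulosa cell genes it was 0.11 to 8.26 and 0 to 65.58 FPKM, and for the endothelial genes 0.02 to 6.45 and 0 to 4.0 FPKM. The part of these transcripts in the chains' values was not tested. The class shares, the group means of all chains above 0 and the tests are given with and without these libraries.

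**Figure D2:**
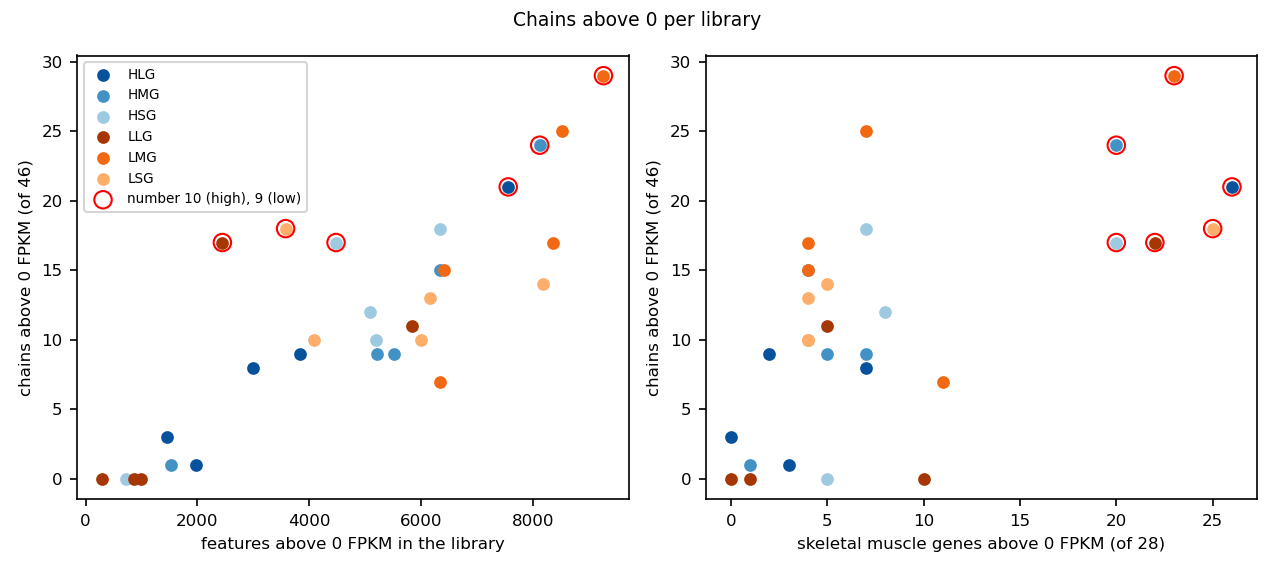
Number of the 46 chains above 0 FPKM in each library against the number of features above 0 (left) and the number of 28 skeletal muscle genes above 0 (right), with 1 point per library coloured by group and the 6 libraries of the set ringed in red. The ringed libraries hold 17 to 29 chains and 20 to 26 muscle genes, and the other 24 hold 0 to 25 chains and 0 to 11 muscle genes.

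Of the 46 chains, 9 (19.57%) were above 0 in all 6 of these libraries, against 2.46% of all features. The set was recognised from chains among these, so the higher shares of the members in it follow in part from that choice. They were COL1A1, COL1A2 and COL3A1 of the fibrillar class, LAMA2, LAMA4, LAMB1 and LAMC1 of the basement membrane, the type VI chain COL6A1 and the fibril-associated chain COL12A1. COL6A1 was above 0 in 1 of the other 24 libraries, COL1A1 and LAMA2 in 2 each, and COL12A1 in 9. Values above 0 made up 45.7% of the members' values in the 6 libraries and 19.7% in the other 24, while over all features the shares were 29.3% and 22.4%. Laminins stood at 55.6% and 18.5%, fibrillar chains at 53.0% and 17.8%, and type IV chains at 26.7% and 16.7%. The 3 transmembrane chains ran the other way, at 11.1% and 20.8%.

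The levels of the chains in the 6 libraries were mostly low. The median of the values above 0 was 0.075 FPKM there and 0.22 FPKM in the other 24 libraries, while over all features it was 0.43 and 0.59 FPKM. Of 126 chain values above 0 in the 6 libraries 20 were above 0.5 FPKM, with COL6A5 the highest (1.92 FPKM, in LSG-9). For basement membrane chains the medians were 0.03 and 0.095 FPKM. COL1A1, a chain of type I collagen, was at 0.10 FPKM in HLG-10, 0.07 in HMG-10, 0.08 in HSG-10, 0.31 in LLG-9, 0.14 in LMG-9 and 0.20 in LSG-9. Outside the set it was above 0 in HLG-5 (0.02 FPKM) and HMG-9 (0.20 FPKM). COL6A1, a chain of the microfibril collagen VI, was at 0.63 FPKM in HLG-10, between 0.02 and 0.10 in the other 5 libraries of the set, and at 0.21 in LSG-10. LAMA2, the α chain of the laminin best known from muscle and nerve, was at 0.01 to 0.21 FPKM in the 6 libraries and at 0.11 in LMG-5 and 0.03 in LMG-8.

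**Figure D3:**
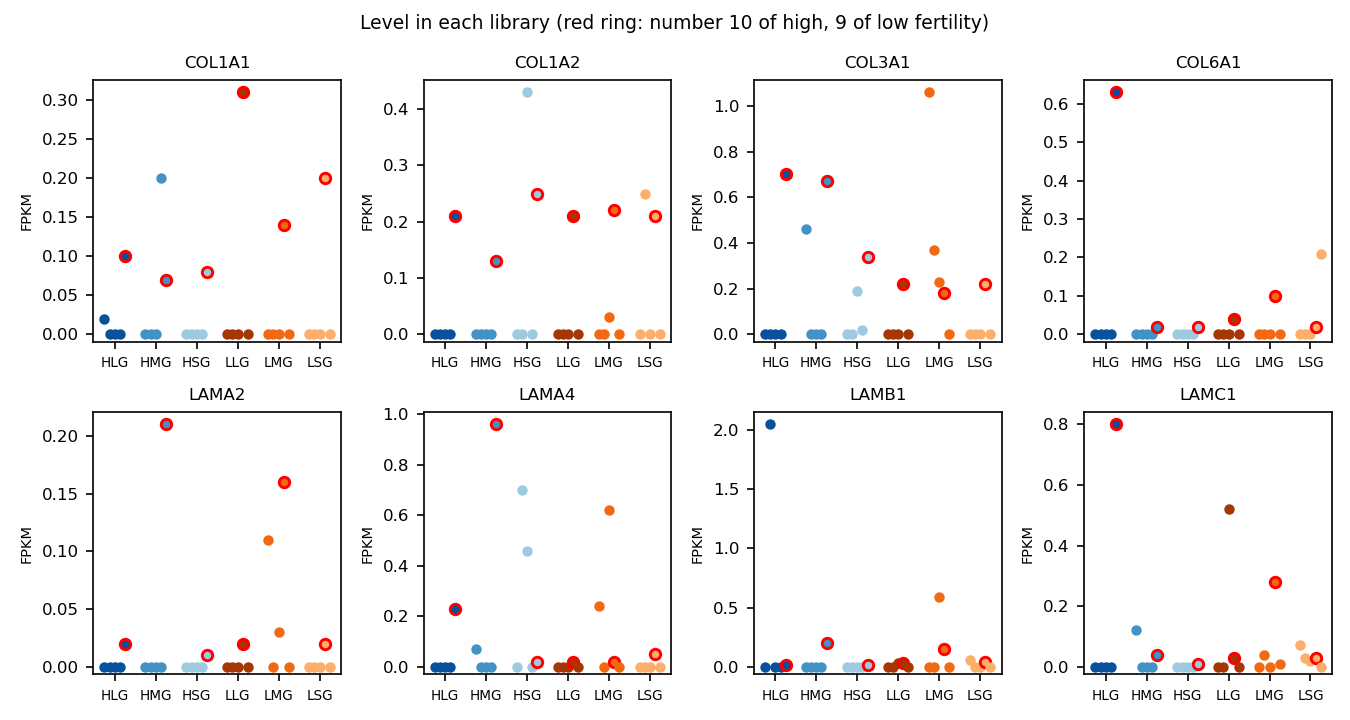
FPKM of 8 of the 9 chains above 0 in all 6 libraries of the set (COL12A1 is not drawn), with 1 point per library, by group, and the 6 libraries ringed in red. The ringed points lie above 0 in every panel and at or below 0.96 FPKM, and most other points lie at 0.

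Basement membrane chains were then set against fibrillar chains. Values above 0 made up 23.33% ± 17.69 of the basement membrane chains of a library and 24.85% ± 20.25 of the fibrillar chains (SD, n = 30 libraries). The difference of -1.52 ± 11.06 percentage points (SD, n = 30) was smaller than its spread between libraries. The other 21 chains were above 0 in 25.87% of their values. Over all features the share was 23.78%. In the 6 libraries basement membrane and fibrillar chains stood at 45.2% and 53.0%, above all features (29.3%). In the other 24 they stood at 17.9% and 17.8%, below all features (22.4%). The set was recognised from chains of both classes, so this contrast follows in part from that choice and is a description. Without the 6 libraries the difference between the classes was 0.05 ± 11.75 percentage points (SD, n = 24).

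Where they were above 0, single basement membrane values were lower than fibrillar ones in the median, whereas the summed levels of the classes overlapped. The median of the basement membrane values was 0.055 FPKM, with 58.2% of the values under 0.1 FPKM, and that of the fibrillar chains was 0.21 FPKM, with 31.7% under 0.1. Of 98 basement membrane values above 0, 15 were above 0.5 FPKM and 4 reached 1 FPKM, and of 82 fibrillar values 20 were above 0.5 FPKM and 8 reached 1. Without the 6 libraries of the set the medians were 0.095 and 0.24 FPKM.

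The summed FPKM of a library was 1.07 ± 1.87 for the basement membrane chains and 0.99 ± 0.975 for the fibrillar chains (SD, n = 30). The basement membrane sum was the higher in HLG, at 0.866 ± 1.16 against 0.416 ± 0.482, and in HMG, at 2.58 ± 3.97 against 0.974 ± 1.05 (SD, n = 5 each). The HMG value rested on HMG-8, without which it was 0.86 against 1.22 (n = 4) and the sums over all libraries 0.78 against 1.02 FPKM (n = 29). The fibrillar sum was the higher in HSG (1.23 against 1.54 FPKM), LLG (0.138 against 0.424), LMG (1.28 against 2.01) and LSG (0.33 against 0.574), each with the basement membrane value first. In all 6 groups the mean difference was smaller than the larger SD of both sums. FPKM is scaled by transcript length, so levels of single chains can be set beside each other. The sums run over 14 basement membrane and 11 fibrillar chains and were not scaled to these numbers, so their order is not one per chain. A long transcript reaches lower values above 0 than a short one at the same depth. Transcript lengths were not used here, so the part of length was not tested. The median gene span in the genome was 128.3 kb for the basement membrane chains and 45.8 kb for the fibrillar chains. This span includes introns and does not stand for transcript length.

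**Figure D4:**
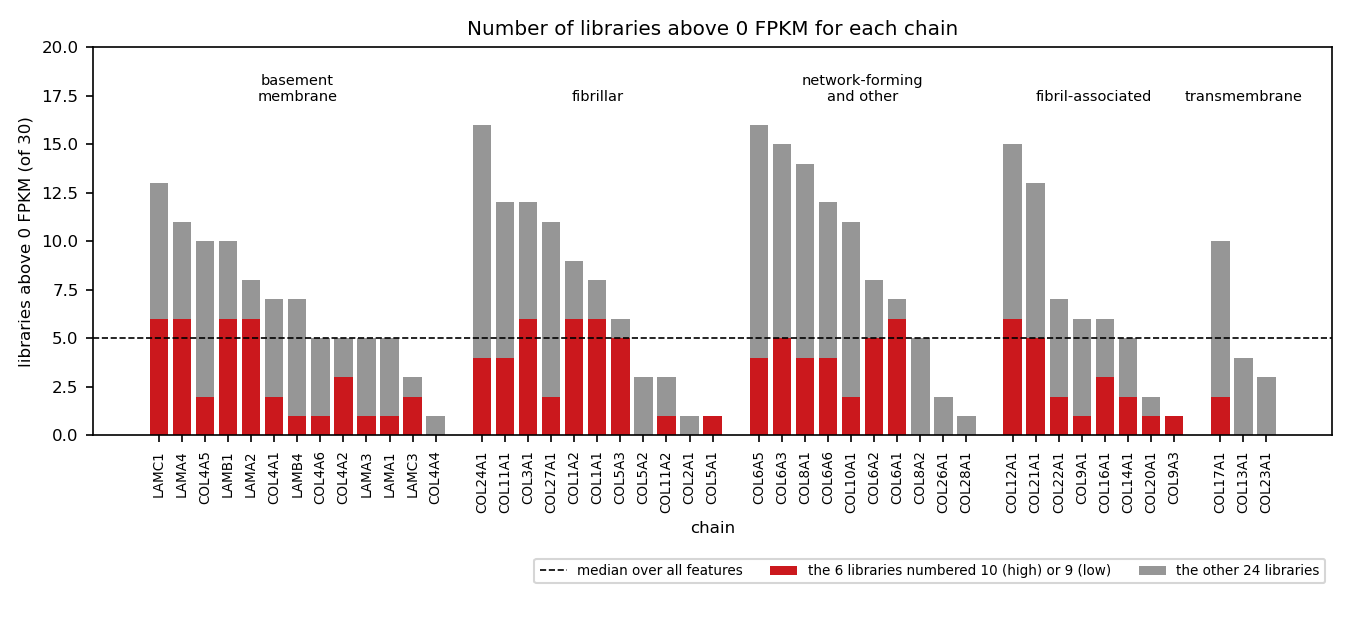
Number of the 30 libraries in which each of 45 of the 46 chains was above 0 FPKM, grouped by class, with the part from the 6 libraries of the set in red, the other 24 in grey and the median of all features (5 libraries) as a dashed line. COL24A1 and COL6A5 lead with 16 libraries, and basement membrane chains run from 1 (COL4A4) to 13 (LAMC1).

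Within the basement membrane class, laminins were above 0 in 25.93% of their values and type IV chains in 18.67%. LAMC1, the γ chain shared by most laminins, led the class in 13 libraries. It was at 0.80 FPKM in HLG-10 among the HLG libraries, at 0.12 in HMG-5 and 0.04 in HMG-10, at 0.01 in HSG-10, and at 0.52 in LLG-8 and 0.03 in LLG-9. In LMG it was at 0.04 in LMG-7, 0.28 in LMG-9 and 0.01 in LMG-10, in LSG at 0.07 in LSG-5, 0.03 in LSG-7, 0.02 in LSG-8 and 0.03 in LSG-9, and it was listed at 0 in all other libraries. LAMC1 was thus above 0 in every group, and the ranges of all groups overlapped.

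LAMA4, an α chain best known from blood vessels, was above 0 in 11 libraries. It was at 0.23 FPKM in HLG-10, 0.07 in HMG-5, 0.96 in HMG-10, 0.70 in HSG-7, 0.46 in HSG-8 and 0.02 in HSG-10. In the low fertility libraries it was at 0.02 in LLG-9, 0.24 in LMG-5, 0.62 in LMG-8, 0.02 in LMG-9 and 0.05 in LSG-9, and at 0 in the rest. Its higher values were spread over HMG, HSG and LMG, with overlap between all groups.

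LAMB1, the β chain found in most basement membranes, was above 0 in 10 libraries. Its highest value was 2.05 FPKM in HLG-7, followed by 0.59 in LMG-8 and 0.20 in HMG-10. It was at 0.15 in LMG-9, 0.06 in LSG-5, 0.04 in LSG-9, 0.03 in LLG-8 and LLG-9, and 0.01 in HLG-10 and HSG-10, and listed at 0 elsewhere. A single library of large high fertility follicles thus held the top value, while the other HLG libraries were at 0 or 0.01.

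COL4A5, an X-linked chain of type IV collagen, was above 0 in 10 libraries and had the highest value of all members, 9.47 FPKM in HMG-8. It was the only chain above 0 in that library. Its other values were 1.52 FPKM in LMG-7, 0.36 in HSG-8, 0.28 in HSG-9, 0.05 in HMG-7 and HMG-9, 0.03 in LSG-5, 0.02 in HSG-7 and 0.01 in HMG-10 and LLG-9. No HLG library was above 0. The range within HMG, from 0 to 9.47, covered every other group.

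COL4A1 and COL4A2, the partners of the most widespread type IV network and neighbours in the genome, were above 0 in 7 and 5 libraries but together in 2 (LMG-8 and LMG-9), or 28.6% and 40.0% of their libraries. COL4A1 reached 0.56 FPKM in HMG-5 and COL4A2 0.38 in LMG-8. COL4A5 and COL4A6, which also join in a network, shared 2 libraries of 10 and 5. COL4A4 was above 0 in 1 library (0.21 FPKM in LSG-7). Among the remaining laminins LAMA2 was above 0 in 8 libraries, LAMB4 in 7, LAMA1 and LAMA3 in 5 each and LAMC3 in 3, with values up to 0.79 FPKM (LAMC3 in LMG-9).

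A complete laminin, with at least 1 α, 1 β and 1 γ chain above 0, was present in 8 libraries. These were the 6 libraries of the set, HLG-9 and LLG-8. An α chain was above 0 in 15 libraries, a β chain in 15 and a γ chain in 19, and 7 libraries held no laminin. LAMB1 and LAMC1, which pair in the common laminins, shared 8 libraries, or 80.0% of those with LAMB1 and 61.5% of those with LAMC1. These were the set of 6, LLG-8 and LSG-5. The set was recognised from the joint presence of laminins among other chains, so these overlaps follow in part from that choice. In the other 24 libraries LAMB1 was above 0 in 4 and LAMC1 in 7. At least 1 type IV chain was above 0 in 19 libraries and at least 1 fibrillar chain in 24.

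Among fibrillar chains, COL24A1, a minor fibrillar collagen, was above 0 in 16 libraries. It was at 0.44, 0.18 and 0.14 FPKM in HLG-7, HLG-9 and HLG-10 and at 0 in all LLG libraries. It was at 0.16, 0.01, 1.03 and 0.52 FPKM in HMG-5, HMG-7, HMG-9 and HMG-10, and at 1.16, 1.5, 0.38 and 0.79 in LMG-5, LMG-7, LMG-9 and LMG-10. In small follicles it was at 1.31 in HSG-7 and 0.92 in HSG-10, and at 0.96, 0.12 and 0.37 in LSG-5, LSG-8 and LSG-10. The chain was thus above 0 in 8 of 10 medium and 3 of 10 large follicle libraries, and its values overlapped between the fertility classes at every size.

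COL3A1, the chain of type III collagen, was above 0 in 12 libraries. It was at 0.70 FPKM in HLG-10, 0.46 in HMG-5, 0.67 in HMG-10, 0.19 in HSG-8, 0.02 in HSG-9 and 0.34 in HSG-10. In the low fertility libraries it was at 0.22 in LLG-9, 1.06 in LMG-5, 0.37 in LMG-7, 0.23 in LMG-8, 0.18 in LMG-9 and 0.22 in LSG-9. In HLG, LLG and LSG only the library of the set of 6 was above 0.

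COL1A2, the partner of COL1A1 in type I collagen, was above 0 in 9 libraries. In the set of 6 its values lay close together, at 0.21 FPKM in HLG-10, 0.13 in HMG-10, 0.25 in HSG-10, 0.21 in LLG-9, 0.22 in LMG-9 and 0.21 in LSG-9. Elsewhere it was at 0.43 in HSG-8, 0.03 in LMG-8 and 0.25 in LSG-7. COL1A1 and COL1A2 shared 6 libraries, the set of 6, which was 75.0% of those with COL1A1 and 66.7% of those with COL1A2. The set was recognised from these chains among others, so this overlap is a description.

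COL11A1, a chain of the fibril-nucleating type XI collagen of cartilage, was above 0 in 12 libraries. Its highest values were 2.27 FPKM in HSG-8 and 1.33 in LLG-8. It was at 0.09, 0.39 and 0.78 in HMG-7, HMG-9 and HMG-10, at 0.24, 0.72, 0.03 and 0.51 in LMG-5, LMG-7, LMG-8 and LMG-9, at 0.02 in HLG-10, 0.01 in LLG-9 and 0.06 in LSG-10. Medium follicles held most of its libraries, but the top values came from a small and a large follicle library.

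COL27A1, also a minor fibrillar collagen, was above 0 in 11 libraries. It was at 0.25 FPKM in HLG-9, 0.16 in HMG-9 and HMG-10, 0.58 in HSG-7 and 0.04 in HSG-8. In the low fertility libraries it was at 0.18, 0.02, 0.89 and 0.09 in LMG-5, LMG-7, LMG-9 and LMG-10, and at 0.01 and 0.46 in LSG-5 and LSG-7. It was above 0 in 1 of 10 large and 6 of 10 medium follicle libraries. The remaining fibrillar chains were rarer: COL5A3 was above 0 in 6 libraries (highest 1.25 FPKM, in HSG-9), COL5A2 and COL11A2 in 3 each, and COL5A1 and COL2A1 in 1 each.

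Of the other 21 chains, COL6A5 of the type VI collagens was the most frequent, above 0 in 16 libraries (highest 1.92 FPKM, in LSG-9). COL6A3 was above 0 in 15 (2.38 in HLG-8) and COL6A6 in 12, whereas COL6A1 and COL6A2, which are shared by the type VI trimers, were above 0 in 7 and 8. The classical trimer of COL6A1, COL6A2 and COL6A3 was above 0 in 5 libraries, 4 of them in the set of 6. COL6A1 and COL6A2, genome neighbours, shared 6 libraries, and COL6A3 and COL6A5 shared 13. COL12A1, which binds to fibrils, was above 0 in 15 libraries (up to 2.10 FPKM, in HMG-7), COL8A1 of the type VIII network in 14 (3.47 in HSG-7), COL21A1 in 13 (2.29 in HSG-9) and COL17A1, the hemidesmosome collagen, in 10 (1.17 in HSG-10).

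Across the 6 groups, large follicle libraries held on average 8.4 ± 7.8 chains above 0 in HLG and 5.6 ± 7.96 in LLG (SD, n = 5 each). Medium follicles held 11.6 ± 8.53 in HMG and 18.6 ± 8.65 in LMG, and small follicles 11.4 ± 7.2 in HSG and 13.0 ± 3.32 in LSG (SD, n = 5 each). Both classes had their lowest mean in LLG and their highest in LMG, which were also the groups with the fewest and the most features above 0. For basement membrane chains the means were 1.8 ± 2.49 in LLG and 5.2 ± 3.03 in LMG, and for fibrillar chains 1.4 ± 2.19 and 5.0 ± 1.73 (SD, n = 5 each). Without the library of the set of 6, the means of all chains were 2.75 ± 5.5 in LLG and 16.0 ± 7.39 in LMG (SD, n = 4 each), and 5.25 ± 3.86 in HLG.

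Whether a chain was above 0 more often in 1 group than in another was compared with Fisher's exact test, two-sided, over all 20125 features with Benjamini-Hochberg adjustment. No member passed the adjusted threshold of 0.05 in any of the 7 comparisons, and neither did any other feature. With 5 libraries against 5 the smallest exact p is 0.00794, which 3195 features would have to reach together to pass, so the 0 within each follicle size was set by the design. In HLG against LLG 0 of 46 members and 0% of all features were called, and the same 0 and 0% held for HMG against LMG, for HSG against LSG and for high against low fertility. In large against medium, in large against small and in medium against small follicles it was again 0 members and 0%. At an unadjusted p under 0.05 the exact test gave 0 members in each comparison and between 61 (HLG against LLG) and 1241 (large against medium) of all features. The limma test of levels called 0 chains as well.

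Counted above 0 FPKM, the more frequent direction among the members was also the more frequent one among all features in the 7 comparisons. From large to medium follicles, 5 members were above 0 more often in large and 34 more often in medium follicles, against 9.6% and 73.8% of all features. From large to small follicles the counts were 10 and 28 members, against 15.5% and 59.7% of all features. In HMG against LMG they were 8 and 29, against 17.8% and 51.4%, and in HLG against LLG 14 and 8, against 38.1% and 14.0%. Without the 6 libraries the counts from large to medium follicles were 5 and 31 members, against 8.6% and 68.6% of all features. In high against low fertility they were then 12 and 23 members, against 22.3% and 55.6% of all features. With all libraries they were 15 and 24 members, against 30% and 51% of all features. Counted above 0.5 FPKM, high against low fertility turned to 15 members higher and 8 lower, while 31.1% of all features were higher and 38.7% lower, and HSG against LSG to 10 and 6 members, against 19.8% and 29.8% of all features. The lowest detection p of a member belonged to COL27A1 in large (1 of 10 libraries) against medium follicles (6 of 10), with an exact p of 0.0573 and 0.621 after Benjamini-Hochberg adjustment. COL24A1 followed in the same comparison (3 of 10 against 8 of 10, exact p = 0.0698, adjusted 0.621).

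Levels were compared with limma on log2(FPKM + 1) for the 6058 features above 0.5 FPKM in at least 5 libraries, with all 6 groups in 1 fit. Only 6 of the 46 chains (13.0%, against 30.1% of all features) passed this filter: the fibrillar chains COL24A1 and COL11A1, the fibril-associated chains COL12A1 and COL21A1, and COL6A5 and COL10A1. None of the 14 basement membrane chains did, so their levels were not tested in the 6058 features. In the fit without a filter all 46 chains were tested and 0 were called by limma with Benjamini-Hochberg adjustment. A fold change on this scale understates the change of low features.

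In the fertility comparisons 0 of 6 chains passed limma's adjusted threshold of 0.05. In HLG against LLG 0% of the features tested were called, with 0 of the 6 chains and 291 of the 6058 features at an unadjusted p under 0.05. In HMG against LMG it was 0%, with 0 chains and 312 features at that p. In HSG against LSG it was 0%, with 2 chains and 387 features. In high against low fertility over all sizes it was 0%, with 1 chain and 239 features, and in the fertility by size interaction 0%, with 1 chain and 283 features. The median log2 difference of the 6 chains, high minus low, was -0.006 over all sizes, against -0.011 for all features tested. It was 0.075 against 0.101 in large, -0.218 against -0.074 in medium and 0.074 against -0.092 in small follicles.

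COL10A1, the short-chain collagen of growth plate cartilage, had the lowest p among the chains for fertility. In the high fertility libraries it was above 0 in 3 of 15, at 0.04 FPKM in HLG-10, 0.18 in HSG-8 and 0.02 in HSG-10. In the low fertility libraries it was above 0 in 8 of 15, at 1.09 in LLG-8, 0.32, 0.02 and 2.50 in LMG-7, LMG-8 and LMG-10, and 0.63, 1.84, 3.0 and 0.26 in LSG-5, LSG-7, LSG-8 and LSG-10. All values above 0.18 FPKM fell in low fertility libraries, yet 7 of 15 of these were at 0, so the classes overlapped. COL10A1 passed the filter through 5 libraries above 0.5 FPKM, all of low fertility. The filter thus bears on its fertility contrasts, and its p there is a description. The log2 difference, high minus low, was -0.50 ± 0.19 (SE; limma, Benjamini-Hochberg adjusted p = 0.952). In HSG against LSG it was -0.855 ± 0.32 (SE; limma, Benjamini-Hochberg adjusted p = 0.600).

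COL21A1, a fibril-associated chain, was the other chain with an unadjusted p under 0.05 in HSG against LSG. It was at 1.64, 2.29 and 0.65 FPKM in HSG-7, HSG-9 and HSG-10, and at 0.02 and 0.10 in LSG-5 and LSG-9, with the other libraries of both groups at 0. The log2 difference was 0.73 ± 0.29 (SE; limma, Benjamini-Hochberg adjusted p = 0.667). In HMG against LMG it ran the other way, at -0.48 ± 0.30 (SE; limma, Benjamini-Hochberg adjusted p = 1.0), the lowest p of a chain there. The interaction of fertility and size gave an adjusted p of 0.895 for COL21A1 (limma, Benjamini-Hochberg), so a difference of its fertility effect between sizes did not pass the threshold. All values of COL21A1 above 0.5 FPKM fell in HSG and LMG, so the filter bears on these contrasts too. In HLG against LLG the lowest p belonged to COL6A5, with a difference of 0.32 ± 0.32 (SE; limma, Benjamini-Hochberg adjusted p = 1.0).

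**Figure D5:**
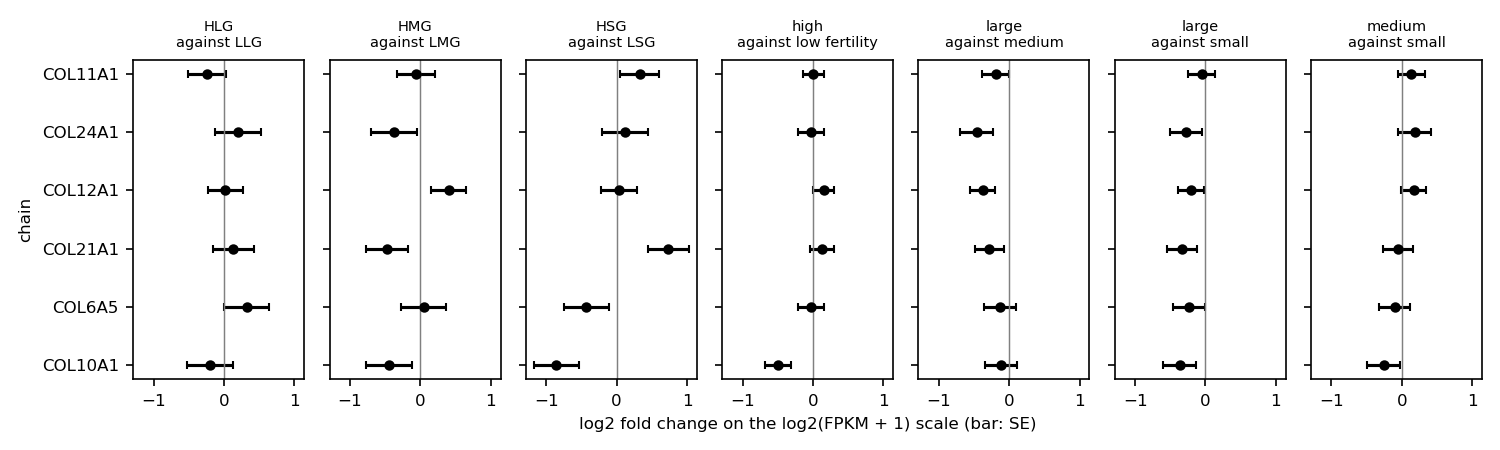
Log2 differences (points) with SE (bars) of the 6 chains that passed the filter, on the log2(FPKM + 1) scale, in the 7 comparisons fitted with limma. The largest difference is that of COL10A1 in HSG against LSG (-0.855), and no chain passed the adjusted threshold.

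Between follicle sizes 0 of the 6 chains were called by limma either. In large against medium follicles 0% of the features tested were called, with 1 chain and 698 features at an unadjusted p under 0.05, and in large against small follicles 0%, with 0 chains and 510 features. In medium against small follicles 0.0165% of the features were called, with 0 chains called and 0 chains and 311 features at the unadjusted p. All 6 chains were lower in large than in medium and than in small follicles, with a median log2 difference of -0.24 and -0.26, but the medians over all features tested were -0.25 and -0.19. The chains thus shared the shift of the features tested toward lower values in large follicles. COL12A1, COL21A1 and COL24A1 passed the filter without a value above 0.5 FPKM in a large follicle library. Their lower levels there follow in part from the filter.

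The lowest p of a chain in large against medium follicles was that of COL12A1, with a log2 difference of -0.38 ± 0.18 (SE; limma, Benjamini-Hochberg adjusted p = 0.424). It was at 0.10 FPKM in HLG-10, 0.02 in LLG-8 and 0.01 in LLG-9 among large follicles. Among medium follicles it was at 0.02, 2.10, 0.90 and 0.31 in HMG-5, HMG-7, HMG-9 and HMG-10 and at 0.79 and 0.09 in LMG-8 and LMG-9. All large follicle values were thus at or below 0.10 FPKM, a range that 6 of the 10 medium follicle libraries also fell in. COL12A1 passed the filter through medium and small follicle libraries only, so the p of this contrast is a description. COL10A1 had the lowest p in large against small (-0.37 ± 0.23, SE; limma, Benjamini-Hochberg adjusted p = 0.615) and in medium against small follicles (-0.26 ± 0.23, SE; limma, adjusted p = 0.995).

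Without the 6 libraries of the set, 4 chains remained in the limma test (COL10A1, COL12A1, COL21A1 and COL24A1) and 0 were called in any comparison. Of the 46 chains 0 were called by Fisher's exact test. There, COL10A1 was above 0 in 1 of 12 high and 8 of 12 low fertility libraries (exact p = 0.00942, 1.0 after Benjamini-Hochberg adjustment), a contrast wider than with all libraries but again not past the threshold. COL8A1 was above 0 in 1 of 8 large and 6 of 8 small follicle libraries (exact p = 0.0406, Benjamini-Hochberg adjusted 1.0).

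Genes that work with these chains were also above 0 in few libraries, with medians of 6 to 7 libraries in 5 lists. Of 14 partners of the basement membrane, HMCN1 (a matrix protein that links adjoining basement membranes) was above 0 in 15 libraries and FRAS1 (an epithelial basement membrane protein) in 12. NID1, which bridges laminin and type IV collagen, was above 0 in 11, and HSPG2, the proteoglycan perlecan, in 7. Of 18 other matrix genes, VCAN (versican, a proteoglycan of the follicle) was above 0 in 22 libraries and THBS2 (thrombospondin 2) in 16. The filter was passed by 1 of 14 and 4 of 18 genes of these lists.

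Among 22 genes that fold, modify and process collagens, LOXL3, a cross-linking oxidase, was above 0 in 19 libraries and ADAMTS3, which cleaves procollagen, in 18. SERPINH1, the collagen chaperone, was above 0 in 8 libraries and P4HB, a subunit of the prolyl hydroxylase, in 6. Among 22 matrix receptors, the laminin receptor chain ITGA6 and ITGA8 were above 0 in 16 libraries each, and ITGB1, the β chain common to most of these integrins, in 7. Of 21 matrix proteases and their inhibitors, TIMP3 was above 0 in 16 and MMP16 in 15. By limma with Benjamini-Hochberg adjustment, 0 genes of the 5 lists were called in any comparison, with 7 of 22, 5 of 22 and 7 of 21 genes of the last 3 lists tested, against 30.1% of all features and 13.0% of the chains. At an unadjusted p under 0.05 limma gave ITGB3 in large against medium and medium against small, TIMP3 in HLG against LLG and in high against low fertility, and TIMP4 in large against medium follicles.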

How the data were processed

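The authors deposited 1 table of FPKM values with 2 decimals for 20125 features in 30 libraries. According to the methods, reads that matched the goat genome once were freed of duplicates by picard, and Cufflinks then estimated FPKM from an Ensembl annotation, although the table carries NCBI gene numbers. The build and the aligner are not given in the sources used here. Values of long or low genes depend on depth, which was not used here, so no counting error is given.

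Symbols and gene spans came from the RefSeq table of ARS1.2 (17945 features with a symbol), and no coordinates or sequences were used. Levels were tested with limma 3.58.1 (R 4.3.3, trended robust prior, 6 group means) on log2(FPKM + 1) for features above 0.5 FPKM in at least 5 libraries, and libraries above 0 with Fisher's exact test over all features (Python 3.11.15, scipy 1.17.1). Both used Benjamini-Hochberg adjustment within each contrast and a threshold of 0.05, two-sided. Both steps were tested on simulated data with a known change. In limma's simulation all features had the same spread, so these checks do not measure power or error rate in these data.

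The members and gene lists were chosen with earlier results of these data known. Named with values in every library were up to 5 basement membrane and 5 fibrillar chains above 0 most often and the chain with the lowest limma p in each contrast. Of these, 1 basement membrane chain is not reported here singly, though counts over the classes include it. In each partner list the 2 genes above 0 in the most libraries were named. COL1A1, COL6A1, LAMA2, the pairs and trimers, the rarer chains, NID1, HSPG2, SERPINH1, P4HB, ITGB1, ITGB3 and TIMP4 were named after their values were seen. The alternatives were another pseudocount, 2 other filters, rescaling, quality weights, features above 0 as covariate, a replicate block, only the compared groups in the fit, other detection limits, each library left out, 4 libraries that the mapping statistics of the study do not list (HLG-5, HSG-5, LLG-5 and LLG-7) left out and, added after the data were seen, the set of 6 libraries left out.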

Additional observations from a re-analysis of the deposited data

Results flagged for a closer look

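Within each group of 5 libraries, 42 sets of values were searched for a library far from the other 4 by Dixon's criterion. For independent values with a normal spread, chance meets it in about 1 of 20 sets, or 2.1 here. The sets were counts and sums with many values at 0, and some contain others. This rate is therefore nominal and the flags are a description. Dixon's criterion was met in 8 sets. The skeletal muscle list was chosen after the values of these libraries had been seen, so its 3 are a description. Without it 5 of 36 sets met the criterion, against 1.8 at the nominal rate. LSG-10 held 1 basement membrane chain above 0, while the other LSG libraries held 4 to 5. LMG-9 held 8 fibrillar chains, against 4 to 5 in the other LMG libraries. In HMG-8 the basement membrane chains summed to 9.47 FPKM, all of it COL4A5, against 0.1 to 2.44 in the other HMG libraries. In LLG-8 all chains summed to 3.9 FPKM, against 0 to 1.05 in the other LLG libraries, and its basement membrane chains to 0.58 FPKM, against 0 to 0.11. Skeletal muscle genes above 0 numbered 26 in HLG-10 (0 to 7 in the other HLG libraries), 20 in HSG-10 (4 to 8 in the others) and 25 in LSG-9 (4 to 5 in the others). Their part in the chains' values was not tested.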

How the results depend on the processing

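The share of basement membrane chains above the limit of detection fell from 23.33% (above 0) to 3.57% above 0.5 FPKM and 0.95% at 1 FPKM or more, and that of fibrillar chains from 24.85% to 2.42% at 1 FPKM or more, by construction of the limits. Leaving out each library in turn gave 21.92% to 24.14% for the basement membrane chains, 23.20% to 25.71% for the fibrillar chains and -2.24 to -0.56 percentage points for the difference. The count of chains called was 0 in every comparison, by limma and by Fisher's exact test with Benjamini-Hochberg adjustment, under each alternative that left chains to test and with each library left out. The filter of FPKM above 1 in at least 10 libraries left no chain to test in limma, and Fisher's test within a follicle size could not call any feature. The log2 differences of the chains with the lowest p kept their direction in all alternatives that tested them, and their adjusted p stayed at 0.142 or above. COL10A1 in HSG against LSG ranged from -2.44 to -0.81 (adjusted p 0.307 to 0.83, limma, Benjamini-Hochberg) and in high against low fertility from -1.49 to -0.41 (0.743 to 0.998). COL21A1 in HMG against LMG moved from -0.48 to -0.26 without LMG-7, and COL12A1 in large against medium follicles from -0.38 to -0.17 with features above 0 as covariate. COL6A5, COL10A1 and COL12A1 each fell under the filter in 5 of the 30 fits without a library, and COL6A5 also without the set of 6. The shared numbers of the libraries were not taken to pair them. Over the 6058 features that passed the filter, deviations of 75 same-numbered pairs correlated at -0.034 to 0.124 (median 0.006, other pairs -0.002). Of 30 libraries, 7 went best with their own number. Within a fertility class the 30 same-numbered pairs correlated at -0.027 to 0.124 (median 0.01), and the 6 pairs within the set of 6 libraries at -0.023 to 0.024. COL1A1, COL6A1 and LAMA2 did not pass that filter. These correlations therefore cannot decide whether libraries of like number share transcripts at low levels. With the number as a replicate block 0 chains were called, as without it, and the same held between sizes with the number within each class as block, added after the data were seen. As read totals were not used, a value of 0 sets no limit on a chain's level.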
